A study of Mus musculus with 12 samples.

Results

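The transcription factors that build and maintain pancreatic islet cells were followed in the RNA-seq counts of 12 mouse pancreatic neuroendocrine tumors (PanNETs). They comprise the 8 genes *Pdx1*, *Mafa*, *Nkx6-1*, *Nkx2-2*, *Neurod1*, *Isl1*, *Pax6* and *Rfx6*, chosen by symbol from 38924 gene identifiers, and each symbol matched 1 identifier. All 12 tumors came from RIP1Tag2 mice of the C57Bl6 strain, in which the insulin promoter drives the large T antigen oncogene in beta cells, so that every group, the controls included, carries this transgene. Control tumors (n = 4) came from mice given saline, sunitinib tumors (n = 4) from mice given sunitinib alone, and R+S tumors (n = 4) from mice given rapamycin and sunitinib together. Sunitinib inhibits VEGF and PDGF receptor kinases and thereby blood vessel growth, and rapamycin inhibits mTOR. Treatment started at 15.5 weeks of age and lasted 4 days according to the labels.

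Islet endocrine cells arise from progenitors in which homeodomain, basic helix-loop-helix and RFX factors are switched on in sequence, and many of these factors stay on in the mature cell, where they keep hormone genes active. Pdx1, Mafa and Nkx6-1 are the factors that distinguish beta cells from most other islet cells: they bind the insulin gene or the genes of glucose sensing, and their loss takes away beta-cell identity. Nkx2-2, Neurod1, Isl1, Pax6 and Rfx6 are shared by several islet endocrine cell types.

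The counts of the 12 tumors summed to between 31872342 and 44215054 reads on genes, and every member had at least 110 reads in every tumor. Levels are given as CPM, the count divided by library size and put on a common scale by TMM, which corrects for library size and composition. The labels carry prefixes whose meaning is not stated and which differ between the groups: all 4 control tumors carry one, sunitinib tumors 5, 6 and 8 share another, and R+S tumors 5 and 7 share a further one. Prefix and treatment therefore cannot be told apart. No label says whether tumors came from separate mice, and p-values therefore measure the spread between these tumors. Fewer cells of a type and less RNA per cell cannot be told apart in such bulk samples. The tumors carried high neuroendocrine transcripts in all groups, with 10 granin, secretory and neuroendocrine marker genes summing to between 12535 and 25796 CPM. Transcripts of digestive enzymes of the exocrine pancreas differed between the groups: the 20 acinar markers, of which *Amy2a5* and *Ptf1a* were at 0 in every control tumor, summed to 41.2 to 132 CPM in control tumors, 11740 to 42382 CPM in sunitinib tumors and 3184 to 17651 CPM in R+S tumors. The 10 endothelial markers summed to 610 to 802 CPM in control tumors, 57.8 to 97.2 CPM in sunitinib tumors and 129 to 165 CPM in R+S tumors. One tumor, sunitinib tumor 6, stood apart in the members themselves and is described with and apart from its group below.

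Of the 8 members, 7 had a promoter window in the RefSeq table (GRCm38.p6), and *Mafa* had none. Shown here are the stretches before the RefSeq start that lie outside every annotated exon for *Rfx6*, *Nkx2-2* and *Pdx1*. For *Rfx6* and *Nkx2-2* the R+S tumors lay above every sunitinib tumor. These groups did not overlap, in either direction, for 18.6% of all genes tested. *Pdx1* was nearly absent from sunitinib tumor 6. The *Rfx6* stretch is chr10:51685268-51685517 on the plus strand, the *Nkx2-2* stretch chr2:147186456-147186652 on the minus strand and the *Pdx1* stretch chr5:147269847-147269958 on the plus strand. By the gene coordinates given below, the *Rfx6* and *Nkx2-2* stretches lie inside the annotated span of their genes, downstream of the outermost annotated start. The *Pdx1* stretch lies directly before its gene. Capitals mark CANNTG, the E-box letters read by basic helix-loop-helix factors such as Neurod1, and TAAT, the core read by many homeodomain factors, each searched on both strands.
Rfx6: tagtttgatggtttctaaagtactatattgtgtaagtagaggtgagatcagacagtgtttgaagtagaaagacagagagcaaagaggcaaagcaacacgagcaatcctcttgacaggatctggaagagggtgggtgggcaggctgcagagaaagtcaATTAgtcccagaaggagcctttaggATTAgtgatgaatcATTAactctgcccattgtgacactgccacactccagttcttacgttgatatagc
Nkx2-2: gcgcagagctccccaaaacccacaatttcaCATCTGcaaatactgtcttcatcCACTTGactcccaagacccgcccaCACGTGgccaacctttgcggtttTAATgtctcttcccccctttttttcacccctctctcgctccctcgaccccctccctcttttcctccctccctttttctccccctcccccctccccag
Pdx1: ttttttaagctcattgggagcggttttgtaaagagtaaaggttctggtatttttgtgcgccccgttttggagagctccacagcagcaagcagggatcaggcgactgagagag
Over the whole 250 bases before the start, *Rfx6* held 3 matches to TAAT and 0 to CANNTG, *Nkx2-2* held 1 and 3, and *Pdx1* held 0 and 3, the latter all outside the stretch shown. Among the 32851 RefSeq windows of that length, 66.2% held CANNTG and 54.9% held TAAT, so that both motifs are common and the matches are a description only.

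In control tumors, levels were compared between members after division by the length of all annotated exons of each gene, in CPM per kb. *Pdx1* was highest with 158 ± 16.6 CPM per kb (SD, n = 4), followed by *Isl1* with 140 ± 24.0, *Neurod1* with 115 ± 15.5 and *Pax6* with 80.6 ± 12.6 CPM per kb. *Rfx6* with 62.9 ± 7.84, *Nkx2-2* with 61.7 ± 8.52 and *Nkx6-1* with 57.3 ± 14.9 CPM per kb came next, and *Mafa* was lowest with 30.8 ± 8.41 CPM per kb. Neighbors in this order overlapped between tumors except at the step from *Neurod1* to *Pax6* and the step from *Nkx6-1* to *Mafa*. The order depends on the length used: divided by the longest transcript, *Isl1* had 220 and *Pax6* 213 CPM per kb, above *Pdx1* with 158.

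**Figure D1:**
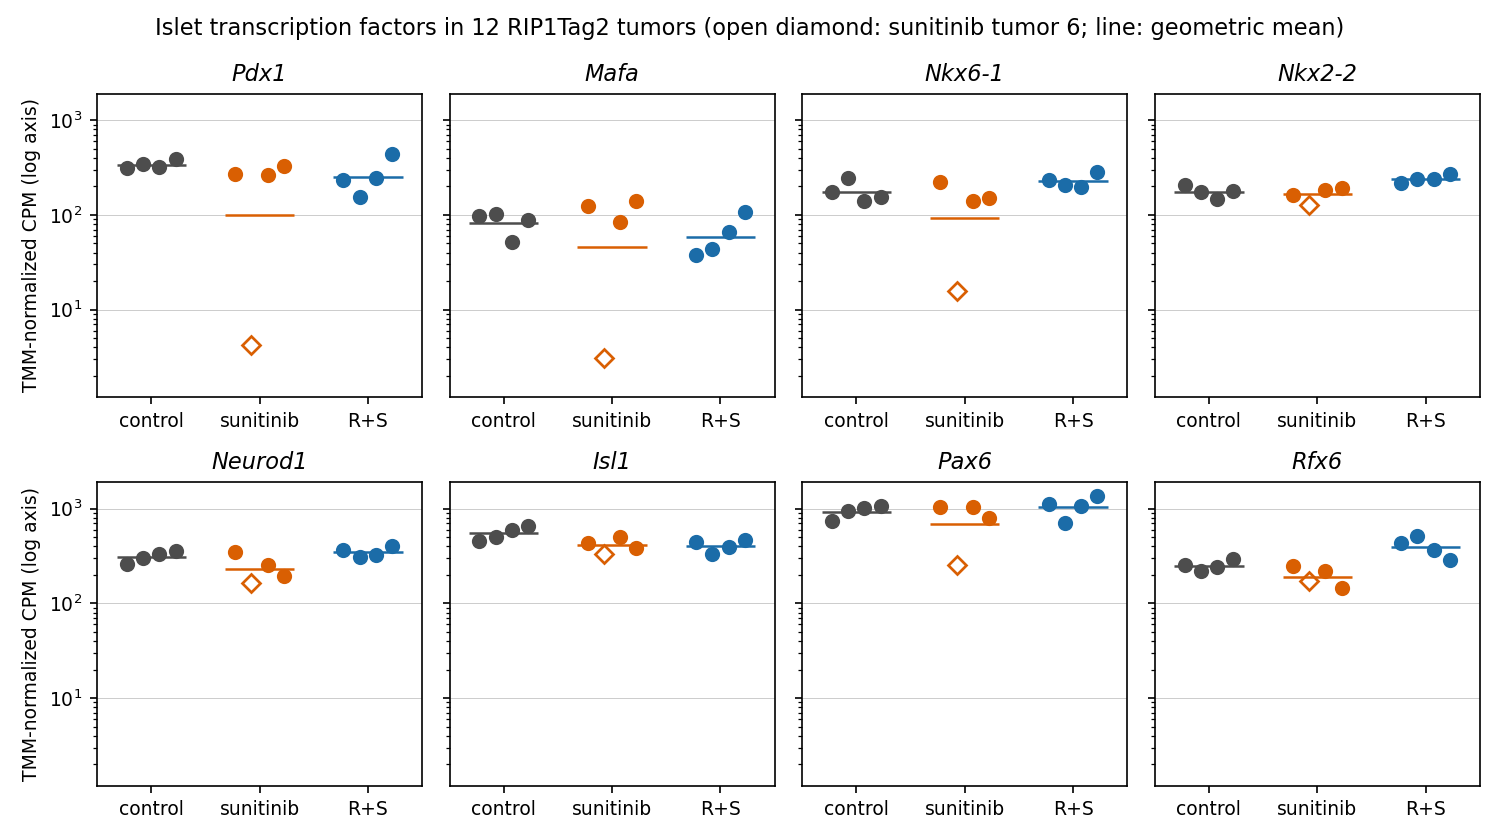
TMM-normalized CPM (log axis) of the 8 islet transcription factors in each of the 12 tumors, by group. Each point is 1 tumor, the open diamond is sunitinib tumor 6 and the line is the geometric mean of 4 tumors. Sunitinib tumor 6 sits far below all others for *Pdx1* (4.17 CPM), *Mafa* (3.04 CPM) and *Nkx6-1* (15.9 CPM), and the R+S tumors sit above all sunitinib tumors for *Nkx2-2* and *Rfx6*.

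The comparisons ask whether angiogenesis inhibition, alone or with mTOR inhibition, went along with a different level of the islet factors. *Rfx6* was the single member called in any of the 3 comparisons, and it was higher in R+S than in sunitinib tumors, by 2.04-fold. *Nkx2-2* was the other member whose R+S tumors lay above every sunitinib tumor, and it missed the threshold narrowly. These groups did not overlap for 18.6% of all genes tested, and 2 of 8 members cannot be set apart from that share. No member was called in either comparison with the control tumors. The beta-cell factors *Pdx1*, *Mafa* and *Nkx6-1* varied more within groups than between them: sunitinib tumor 6 lay far below the rest, and *Mafa* and *Pdx1* spread by more than 2-fold among the R+S tumors.

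*Rfx6*, on chromosome 10 (51677756 to 51730432), encodes an RFX winged-helix factor needed to form islet endocrine cells and to keep the secretory genes of beta cells active. It measured 252, 220.4, 241 and 295 CPM in control tumors 1 to 4, 247, 173, 218 and 145 CPM in sunitinib tumors 5, 6, 8 and 12, and 436, 509, 362 and 289 CPM in R+S tumors 4, 5, 7 and 10. All 4 R+S tumors lay above all 4 sunitinib tumors, and 3 of them lay above every control tumor, R+S tumor 10 being the exception. The means were 252 ± 31.4 CPM in control, 196 ± 45.6 CPM in sunitinib and 399 ± 94.6 CPM in R+S tumors (SD, n = 4 each). The log2 fold change of R+S over sunitinib was 1.03 ± 0.20 (SE), with an adjusted p of 0.0261 in edgeR's quasi-likelihood test and 0.000209 in DESeq2. Against control it was 0.66 ± 0.20, with an adjusted p of 0.0908 in edgeR and 0.0326 in DESeq2. In sunitinib versus control it was -0.37 ± 0.20, with an edgeR adjusted p of 0.344. When tumors that share a label prefix were summed within the treated groups, R+S over sunitinib was 1.11, with an edgeR adjusted p of 0.0383. Without sunitinib tumor 6 the difference between R+S and sunitinib tumors was 0.97 on the log2 scale, with an edgeR adjusted p of 0.0292. It did not pass the threshold when R+S tumor 4, 5 or 7 was left out, when only the 8 tumors of the comparison entered the fit (adjusted p = 0.0994 by edgeR) or when the tumors were scaled to the neuroendocrine genes (0.94, adjusted p = 0.13 by edgeR).

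*Nkx2-2*, on chromosome 2 (147177546 to 147194243), encodes a homeodomain factor of islet endocrine cells that keeps beta cells from taking on other islet fates. Its levels were 208, 176, 148 and 177 CPM in the control tumors, 163, 126, 185 and 190.4 CPM in the sunitinib tumors and 216, 237, 242 and 270.2 CPM in the R+S tumors, in the order used for *Rfx6*. The R+S tumors lay above every tumor of both other groups, which overlapped each other. The means were 178 ± 24.5, 166 ± 29.0 and 241 ± 22.4 CPM (SD, n = 4 each). R+S over sunitinib gave 0.54 ± 0.15 on the log2 scale, with an edgeR adjusted p of 0.0502 and a DESeq2 adjusted p of 0.0131. R+S over control gave 0.44 ± 0.15, with an edgeR adjusted p of 0.122 and a DESeq2 adjusted p of 0.0673. With sunitinib tumor 6 left out, R+S over control was again 0.44, with an edgeR adjusted p of 0.0395. With only its 8 tumors fitted it was 0.43 (0.0382). It did not pass with prefixes summed (0.44, edgeR adjusted p = 0.126) or with the neuroendocrine scaling (0.21, 0.639). R+S over sunitinib did not pass in edgeR without sunitinib tumor 6 (0.43, adjusted p = 0.0577) or with its 8 tumors (0.54, 0.116). The same held with prefixes summed (0.46, 0.123) and with the neuroendocrine scaling (0.55, 0.195). Sunitinib over control gave -0.09 ± 0.15. An antisense transcript, *Nkx2-2os*, overlaps 278 bases of its exons on the other strand and had 8 to 41 reads in the 12 tumors, against at least 4570 for *Nkx2-2*.

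Exact permutation tests of log2 CPM, 2-sided and over the 70 arrangements of 4 tumors against 4, gave p = 0.0286 for *Rfx6* in R+S versus sunitinib and for *Nkx2-2* in both R+S comparisons. This is the smallest p that 4 against 4 tumors allow, and it was not adjusted over the 24 tests made for the 8 members. For *Rfx6* in R+S versus control, the exact permutation p was 0.0571. Over all 16645 genes tested, the groups did not overlap for 10.9% of genes in sunitinib versus control, 23.5% in R+S versus control and 18.6% in R+S versus sunitinib, against 0, 1 and 2 of the 8 members. With 8 members, these counts cannot be set apart from those shares.

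*Neurod1*, on chromosome 2 (79452521 to 79456751), encodes a basic helix-loop-helix factor that acts on the insulin gene and on endocrine maturation. It stood at 262, 299.5, 334 and 359 CPM in control tumors, 348, 165, 252 and 193 CPM in sunitinib tumors and 364, 307, 322 and 406 CPM in R+S tumors. Sunitinib tumors 6, 8 and 12 lay below every control and every R+S tumor, while tumor 5 lay within both groups. R+S over sunitinib was 0.55 ± 0.21 on the log2 scale (edgeR adjusted p = 0.114), sunitinib over control -0.39 ± 0.21 (0.338) and R+S over control 0.16 ± 0.21 (0.723). Without sunitinib tumor 6 the first of these was 0.40 and the second -0.25. *Neurod1* shares 201 exonic bases with *Cerkl* on the same strand, and reads falling there could have been assigned to neither gene.

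*Isl1*, on chromosome 13 (116298281 to 116309689), encodes a LIM homeodomain factor needed for islet cell survival and maturation. Its levels were 451, 503, 600.4 and 662 CPM in control tumors, 438, 329.7, 503 and 388 CPM in sunitinib tumors and 440.5, 332, 389 and 465 CPM in R+S tumors. In each treated group 3 tumors lay below every control tumor, and the remaining one, sunitinib tumor 8 or R+S tumor 10, lay within the control range. The means were 554 ± 95.1, 415 ± 73.5 and 407 ± 58.9 CPM (SD, n = 4 each). Sunitinib over control was -0.42 ± 0.17 on the log2 scale (edgeR unadjusted p = 0.0327, adjusted p = 0.207), and R+S over control was -0.45 ± 0.17 (edgeR unadjusted p = 0.0246, adjusted p = 0.174). Both comparisons use the same control tumors. The treated groups differed from each other by -0.03 ± 0.17 for R+S over sunitinib (edgeR adjusted p = 0.93).

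*Pax6*, on chromosome 2 (105668900 to 105697364), encodes a paired-box factor that acts on hormone genes in all islet endocrine cells. It measured 735, 943, 1024 and 1067 CPM in control tumors, 1049, 257, 1039 and 802 CPM in sunitinib tumors and 1118.5, 712, 1078 and 1367 CPM in R+S tumors. Apart from sunitinib tumor 6, which was far below the rest, the 3 groups overlapped. The log2 fold changes were -0.26 ± 0.36 for sunitinib over control, 0.18 ± 0.36 for R+S over control and 0.44 ± 0.36 for R+S over sunitinib, with edgeR adjusted p of 0.723, 0.821 and 0.425. With that tumor left out, sunitinib over control was 0.03 and R+S over sunitinib 0.15.

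*Pdx1*, on chromosome 5 (147269959 to 147275848), encodes the homeodomain factor that specifies the pancreas and later activates the insulin gene in beta cells. It stood at 313, 341, 319 and 392 CPM in control tumors, 272, 4.17, 263 and 328 CPM in sunitinib tumors and 231, 155, 244 and 442 CPM in R+S tumors. The control tumors were close together, and 3 sunitinib and 3 R+S tumors lay below all of them. Sunitinib over control was -0.65 ± 0.78 on the log2 scale, R+S over control -0.35 ± 0.78 and R+S over sunitinib 0.30 ± 0.78, with edgeR adjusted p of 0.678, 0.844 and 0.816. With that tumor left out, the first was -0.24 and the last turned to -0.10.

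*Mafa*, on chromosome 15 (75745490 to 75748228), encodes the leucine-zipper factor of mature, glucose-responsive beta cells. Its levels were 97.4, 102, 51.1 and 87.5 CPM in control tumors, 123, 3.04, 83.7 and 139.5 CPM in sunitinib tumors and 38.0, 44.0, 66.1 and 106 CPM in R+S tumors. No pair of groups was apart, and the highest and the lowest of the 12 tumors were both sunitinib tumors. Sunitinib over control was 0.05 ± 0.73 on the log2 scale, R+S over control -0.41 ± 0.73 and R+S over sunitinib -0.46 ± 0.74, with edgeR adjusted p of 0.979, 0.80 and 0.697. Leaving out sunitinib tumor 6, R+S over sunitinib was -0.86, with an edgeR adjusted p of 0.117.

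*Nkx6-1*, on chromosome 5 (101658139 to 101664996), encodes the homeodomain factor that holds beta cells apart from alpha cells. It measured 176, 247, 141 and 156 CPM in control tumors, 223, 15.9, 139 and 152 CPM in sunitinib tumors and 234, 209, 199 and 285 CPM in R+S tumors. Each R+S tumor lay above 3 of the 4 control tumors, and R+S tumors 4 and 10 also lay above every sunitinib tumor. R+S over sunitinib was 0.81 ± 0.53 on the log2 scale, R+S over control 0.36 ± 0.53 and sunitinib over control -0.44 ± 0.53, with edgeR adjusted p of 0.321, 0.744 and 0.676. With sunitinib tumor 6 left out, R+S over sunitinib was 0.44 and sunitinib over control -0.07 (edgeR adjusted p = 0.195 and 0.882).

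**Figure D2:**
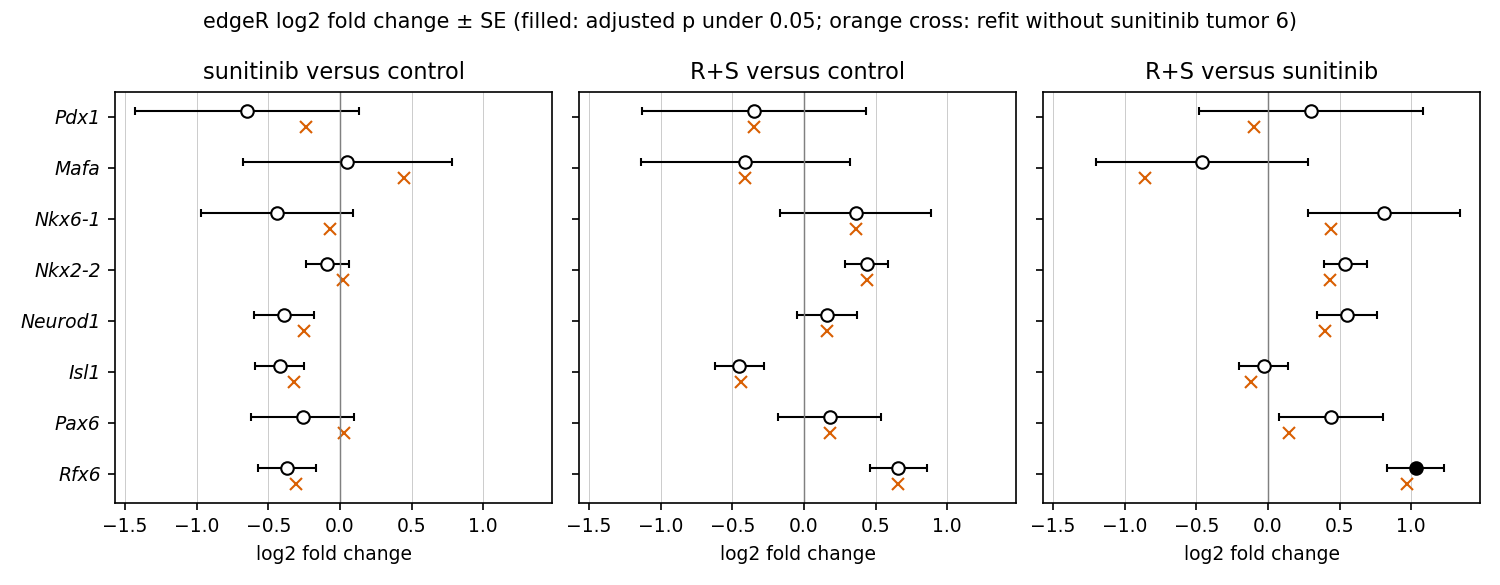
Log2 fold change of each islet transcription factor (x axis) with its standard error in the 3 comparisons, from the edgeR fit over 12 tumors. Filled points passed an adjusted p of 0.05, and orange crosses are the values refitted without sunitinib tumor 6. *Rfx6* in R+S versus sunitinib, at 1.03, is the single filled point, and the crosses move most for *Pdx1*, *Mafa* and *Nkx6-1* in the comparisons that use the sunitinib tumors.

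Counted over the 8 members, edgeR called 0 in sunitinib versus control (1 at an unadjusted p under 0.05, 0 by DESeq2), beside 4.48% of all genes tested. In R+S versus control it called 0 (3 at an unadjusted p under 0.05, 1 by DESeq2), beside 4.16% of all genes. In R+S versus sunitinib it called 1 (3 at an unadjusted p under 0.05, 2 by DESeq2), beside 7.21% of all genes called in either direction and 2.63% called higher. With 8 members, 1 call cannot be set apart from that background. The median log2 fold change of the members was -0.38, 0.17 and 0.49 in the 3 comparisons, beside 0.03, 0.01 and -0.02 for all genes. Leaving out sunitinib tumor 6 brought the members' medians to -0.16, 0.17 and 0.28. Scaling to the neuroendocrine genes moved the median of all genes to -0.20, -0.25 and -0.06 and that of the members to -0.60, -0.11 and 0.48, and it turned the sign for *Mafa* in sunitinib versus control and for *Neurod1* and *Pax6* in R+S versus control. Without sunitinib tumor 6, the counts were 0, 1 and 1 members, beside 5.3%, 9.67% and 10.1% of all genes. The 1 member called in R+S versus control was then *Nkx2-2*, and the 1 in R+S versus sunitinib was *Rfx6*.

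Beside *Rfx6* and *Nkx2-2* in R+S versus sunitinib tumors, markers of other cell types were read. Of the 10 endothelial markers 7 were called higher in R+S tumors, beside 2.63% of all genes called higher and 7.21% called in either direction. Of the 19 acinar markers tested edgeR called 0 (4 at an unadjusted p under 0.05, 1 called lower by DESeq2), with a median log2 fold change of -1.33 and 1 of 19 above 0. Their summed level had a median of 10854 CPM in R+S and 31106 CPM in sunitinib tumors, with overlapping ranges. Of the 10 fibroblast and pericyte markers 1 was called higher, the pericyte gene *Rgs5* (0.62 ± 0.17, edgeR adjusted p = 0.0493). The median log2 fold change of that list was -0.59, with 3 of 10 above 0, and DESeq2 called 1 higher and 2 lower. Of the 10 macrophage and leukocyte markers 1 was called lower, the integrin gene *Itgam* (-2.20 ± 0.57, edgeR adjusted p = 0.0431). The median there was 0.12, with 5 of 10 above 0, and DESeq2 called 0 higher and 2 lower. In a list of 10 markers, 1 call cannot be set apart from the share of all genes. Of the 10 duct and progenitor markers edgeR called 0 and DESeq2 3 lower. Of the 5 red blood cell markers tested edgeR called 0 and DESeq2 2 higher. The part of these markers in the result was not tested. With the acinar level of each tumor as a covariate, *Rfx6* in R+S over sunitinib was 1.09 on the log2 scale with an edgeR adjusted p of 0.0509, and *Nkx2-2* was 0.60 with 0.0745.

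Sunitinib tumor 6 held few transcripts of the beta-cell factors, while most of the shared islet factors were near their level in the other tumors. Its *Pdx1* level of 4.17 CPM (151 reads) compared with a median of 272 CPM in the other 3 sunitinib tumors, a ratio of 65.2, and the next lowest of all tumors had 155 CPM. *Mafa* at 3.04 CPM (110 reads) was 40.6-fold below the median of the other 3, and *Nkx6-1* at 15.9 CPM (574 reads) was 9.61-fold below. *Pax6* was 4.04-fold below. *Neurod1*, *Nkx2-2*, *Isl1* and *Rfx6* were between 1.26-fold and 1.53-fold below. The tumor was the lowest of all 12 for 7 of the 8 members, *Rfx6* being the exception, and it was the lowest for 22.5% of all genes tested. It lay at least 3 log2 units below the median of the other 3 for 3 of the 8 members and for 1.96% of all genes. The depth of this library, 36140305 reads on genes, was within the range of the others. It is 1 tumor with no replicate.

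Around the members, 35 other transcription factors of islet and pancreas development and 20 genes that islet factors act on were read in the same tumor. Among the 29 other factors tested, sunitinib tumor 6 was the lowest of 12 tumors for 8 and the highest for 11. That is 27.6% and 37.9%, beside 22.5% lowest and 22.6% highest over all genes tested. The beta-cell homeodomain factor *Mnx1* was at 0.83 CPM against 23.8 to 77.2 CPM in the other 11 tumors, the endocrine zinc-finger factor *Insm1* at 31.1 CPM against 255 to 490 CPM, and the glucose-responsive factor *Mlxipl* at 141 CPM against 1326 to 2512 CPM. On the high side, the Iroquois factors *Irx1* and *Irx2*, known from alpha cells, stood at 169 and 339.7 CPM against at most 10.5 and 29.6 CPM elsewhere. The POU factor *Pou3f4*, which was not among the 29 tested, was at 34.8 CPM (1259 reads) against at most 0.051 CPM. Glucagon (*Gcg*), the alpha-cell hormone, was at 74.1 CPM, inside the range of 11.7 to 379 CPM of the other tumors. Transthyretin (*Ttr*), which is abundant in alpha cells, was at 6357 CPM against 27.7 to 257 CPM. These other genes of tumor 6 were picked for description after their values had been seen.

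Of the 20 target genes, 15 were lowest in sunitinib tumor 6, beside 22.5% of all genes tested. Their median was -2.80 log2 units against the other 3 sunitinib tumors, beside 0.04 for all genes. *Ins1* was at 338 CPM against 3835 to 20927 CPM in the other 11 tumors, and *Ins2* at 784 CPM against 10612 to 43805 CPM. *Slc2a2*, which encodes the glucose transporter GLUT2, was at 2.04 CPM against 47.9 to 233 CPM. The convertase *Pcsk2*, at 3003 CPM against 2821 to 5196 CPM, was in the range of the others. The 6 beta cell markers of this tumor summed to 1820 CPM, against at least 37169 CPM in control and 41270 CPM in R+S tumors. The 4 sunitinib tumors, this one included, had a median of 35637 CPM. Where its label names an insulinoma, insulin transcripts were present in tumor 6 but lower than in every other tumor. What kind of tumor this is was not tested. Its neuroendocrine genes summed to 14027 CPM, within the range of the others. Its acinar markers had the highest sum of all tumors, 42382 CPM, and its macrophage and leukocyte markers the lowest, 227 CPM. Their part in the low levels of the beta-cell factors was not tested.

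**Figure D3:**
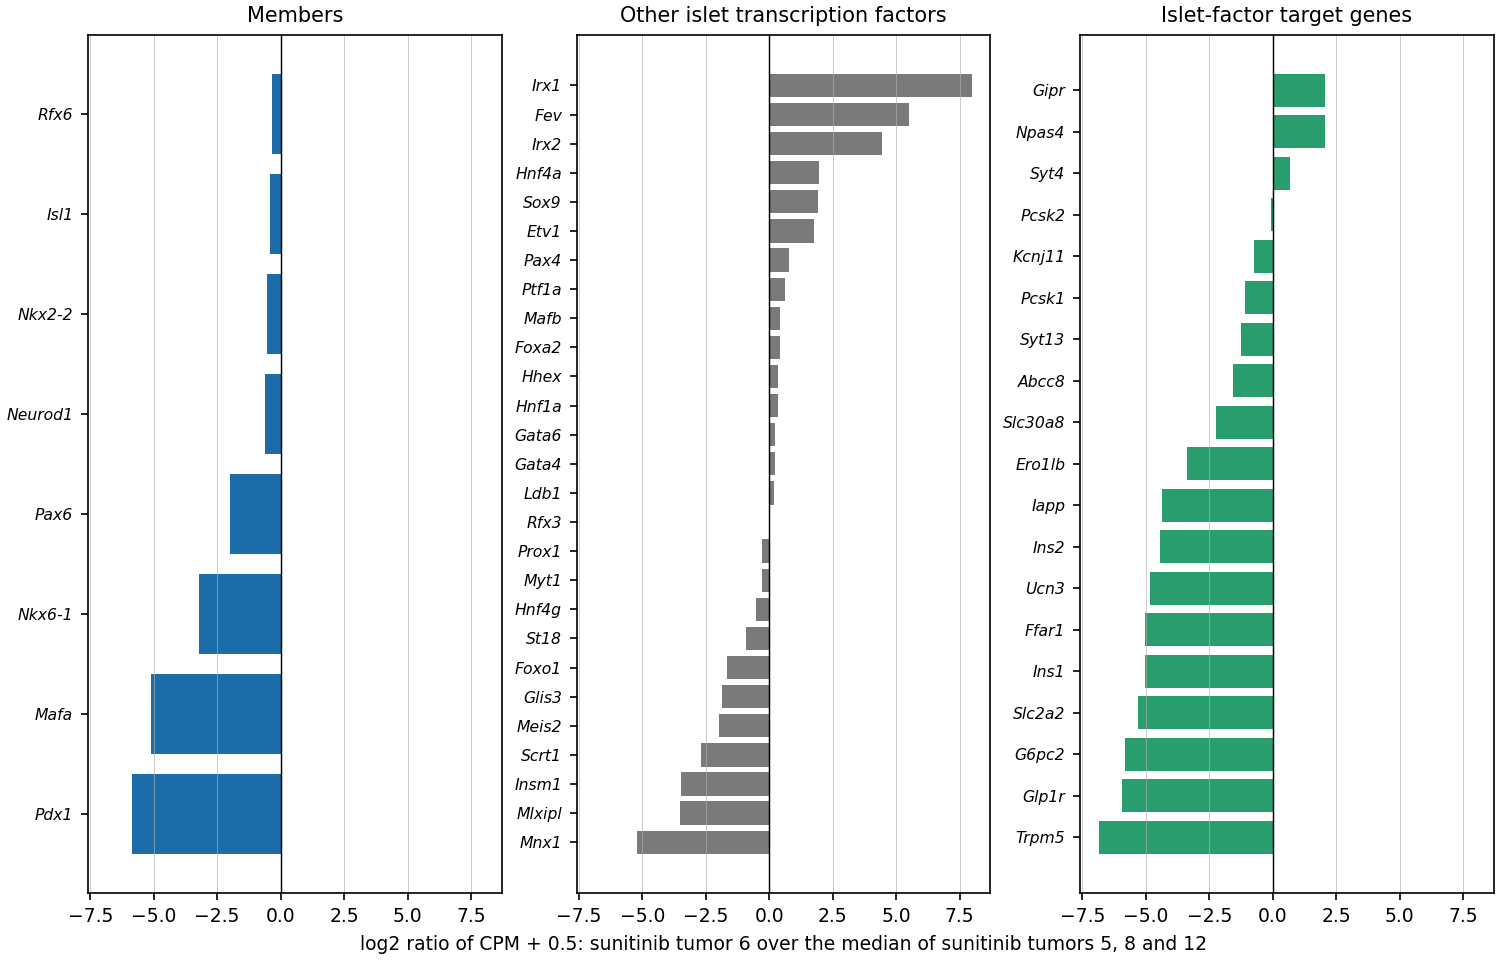
Log2 ratio (x axis) of sunitinib tumor 6 over the median of sunitinib tumors 5, 8 and 12, on CPM + 0.5, for the 8 members and for tested genes, not all of them drawn, of the lists of other islet transcription factors and islet-factor target genes. Bars to the left are lower in tumor 6. *Pdx1*, *Mafa* and *Nkx6-1* reach far to the left while *Rfx6*, *Isl1*, *Nkx2-2* and *Neurod1* stay near 0, and most target genes lie to the left.

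The other islet factors were also compared between the treatment groups. Over all genes tested, edgeR called 4.48%, 4.16% and 7.21% in the 3 comparisons, and 2.63% as higher in R+S versus sunitinib. In sunitinib versus control, 3 of 29 were called higher and 0 lower by edgeR (9 at an unadjusted p under 0.05; DESeq2 called 4 higher and 2 lower). They were *Ptf1a*, *Sox9* and *Gata4*, factors of acinar or duct cells and of pancreatic progenitors, with edgeR adjusted p of 0.000613, 0.025 and 0.0402. *Ptf1a* had 0 reads in the control tumors and a mean of 3.5 CPM in sunitinib tumors, at least 186-fold higher against a floor of 3 reads over the 4 controls. In R+S versus control 1 was called higher, again *Ptf1a* (at least 73.7-fold), and 0 lower (5 at an unadjusted p under 0.05; DESeq2 called 3 higher and 0 lower). Both comparisons share the control tumors, and *Ptf1a* is also 1 of the acinar markers, of which 18 of 19 tested were called higher in each. In R+S versus sunitinib 3 were called higher and 0 lower (9 at an unadjusted p under 0.05; DESeq2 called 4 higher and 1 lower). These were the nuclear receptor *Hnf4g*, with a log2 fold change of 1.72 ± 0.35, the zinc-finger factor *Glis3*, with 1.79 ± 0.40, and *St18*, with 0.89 ± 0.24, at edgeR adjusted p of 0.0275, 0.0313 and 0.0458. *Glis3*, which acts on the insulin gene, was at 81.5 to 137 CPM in R+S tumors and at 10.2 to 52.2 CPM in sunitinib tumors. The median log2 fold change of the 29 factors was -0.01, 0.30 and 0.27 in the 3 comparisons.

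Without sunitinib tumor 6, a choice made after seeing the data, 3, 6 and 7 of 30 other factors were called higher in the 3 comparisons and 0 lower, beside 5.3%, 9.67% and 10.1% of all genes called in either direction. Those in R+S versus control included *Ptf1a*, *Glis3*, *Mlxipl* and *Sox9*. Those in R+S versus sunitinib included *Glis3*, *Foxo1*, *Hnf4g*, *Mlxipl*, *Hnf4a* and *Fev*. *Mlxipl*, which encodes ChREBP and switches on glycolytic and lipogenic genes at high glucose, gave 0.57 ± 0.15 on the log2 scale there (edgeR adjusted p = 0.0411). With sunitinib tumor 6 kept, R+S over sunitinib was 0.03 ± 0.40 for *Hnf4a* and -0.88 ± 1.52 for *Fev*. That tumor had the highest level of both, 73.8 and 32.1 CPM, against at most 45.6 and 10.2 CPM elsewhere. *Fev* was at 0.22 CPM in R+S tumor 7 and at 0.20 to 0.32 CPM in sunitinib tumors 5, 8 and 12.

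Of the 20 target genes, edgeR called 0 in each of the 3 comparisons (1, 0 and 1 at an unadjusted p under 0.05), and DESeq2 called 0, 0 and 1. The median log2 fold changes were -0.37, 0.06 and 0.32, beside 0.03, 0.01 and -0.02 for all genes. With sunitinib tumor 6 left out, the medians were -0.07, 0.06 and 0.23, and 0, 1 and 2 of the 20 were called, shares no higher than the 5.3%, 9.67% and 10.1% of all genes. In that fit, the incretin receptor gene *Gipr* was higher in R+S than in control tumors (0.75 ± 0.21, edgeR adjusted p = 0.0469) and than in sunitinib tumors (0.99 ± 0.23, 0.0316), and urocortin 3 (*Ucn3*), a peptide of mature beta cells, was lower in R+S than in sunitinib tumors (-0.61 ± 0.17, 0.0435). *Slc2a2* stood at 88.9 to 152 CPM in control, 2.04 to 124 CPM in sunitinib and 47.9 to 233 CPM in R+S tumors, and *Ins1* and *Ins2* likewise overlapped between all groups.

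**Figure D4:**
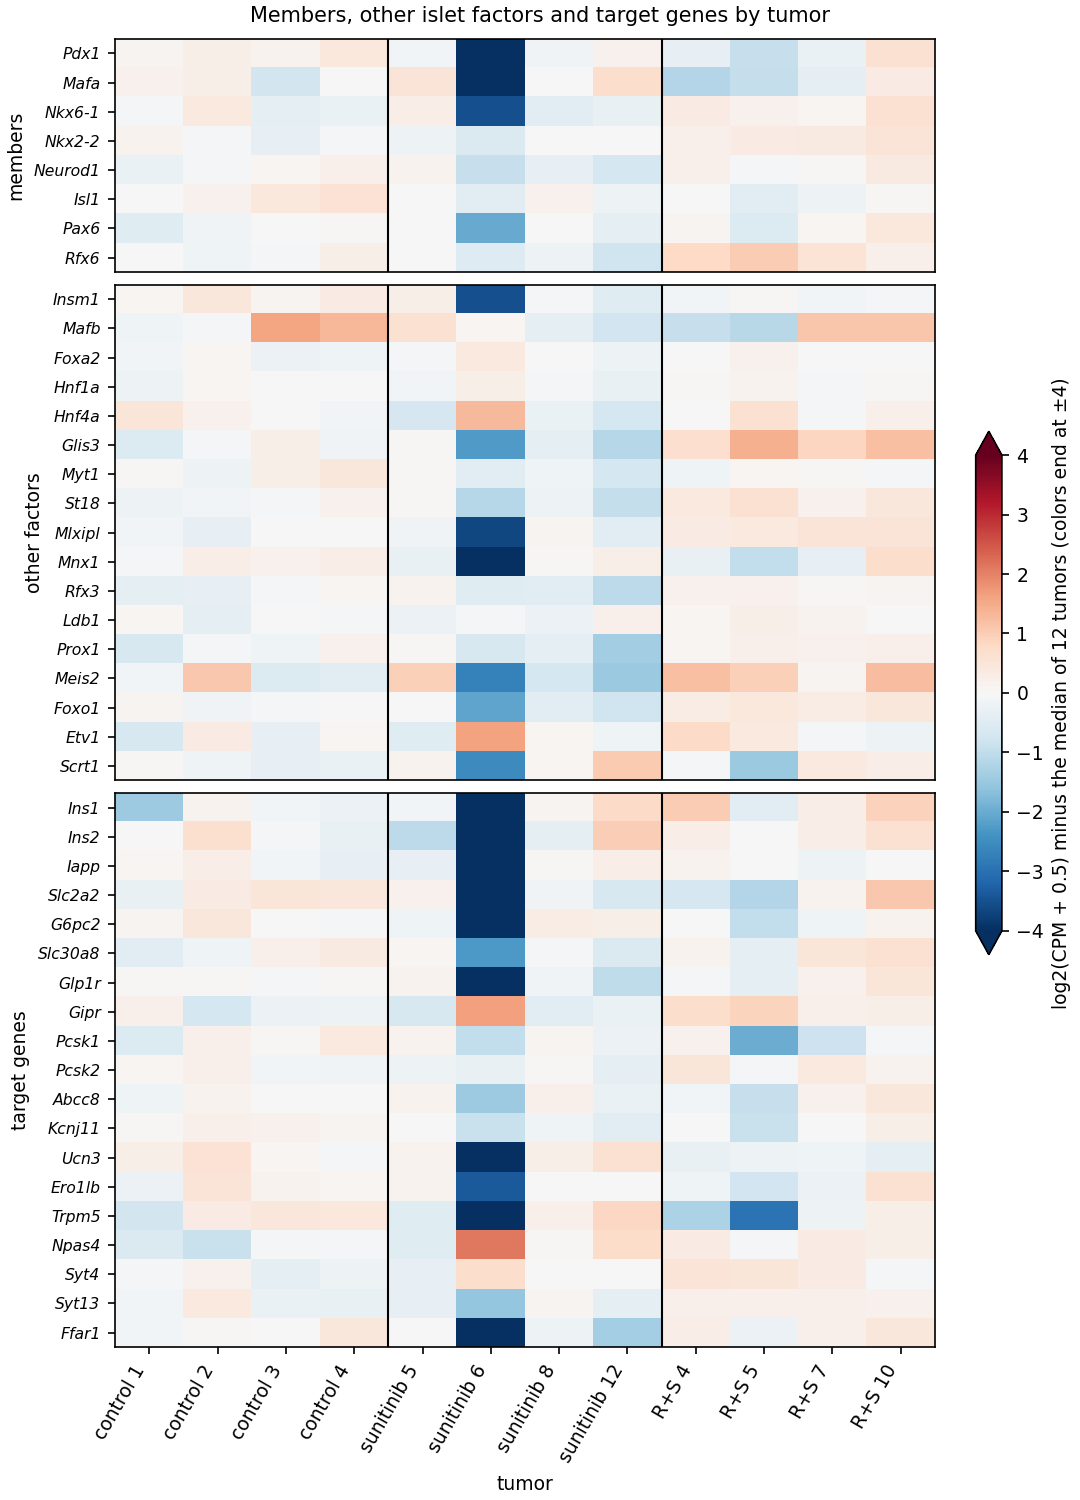
Log2(CPM + 0.5) of each gene in each of the 12 tumors, as the difference from the median of that gene over the tumors, for the 8 members, the other islet factors with a median of at least 20 CPM and the islet-factor target genes, not all of them drawn. Columns are tumors, black lines separate control, sunitinib and R+S tumors, and blue is below and red above the median, with colors ending at 4 log2 units either way. The column of sunitinib tumor 6 is dark blue for *Pdx1*, *Mafa*, *Nkx6-1* and most target genes, and *Rfx6* and *Glis3* are red in the R+S columns.

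The genes whose pattern over the 12 tumors was most like that of each member were found among 10380 expressed genes by the root mean square difference of log2 CPM about each gene's own mean, as a description only. For *Pdx1*, whose own levels had a root mean square of 1.73 about their mean, these were *Mnx1* (0.154), *Tmem215* (0.214) and *G6pc2* (0.309). *Mnx1* stayed close to *Pdx1* when sunitinib tumor 6 was left out, at 0.12 where *Pdx1* itself had 0.392 about its mean. *Tmem215* and *G6pc2* were then at 0.222 and 0.284, nearer to that 0.392. For *Mafa* and *Nkx6-1* the differences of the genes named next were likewise nearer to the member's own 0.589 and 0.335. For *Mafa* (1.41) they were *Papss2* (0.442), *Ucn3* (0.459) and *Hadh* (0.504). For *Nkx6-1* (1.04) they were *Ust* (0.209), *Rnf182* (0.221) and *Esrp1* (0.279). For *Rfx6* (0.498), the nearest were *Nek7* (0.135), *Ppm1l* (0.156) and *Ccdc159* (0.169). For *Pax6* (0.591) they were *Frmd5* (0.166), *Zfhx2* (0.186) and *Uggt1* (0.188). With sunitinib tumor 6 left out, these were at 0.165, 0.168 and 0.171, nearer to the 0.268 that *Pax6* itself then had. For *Nkx2-2* (0.30) they were *Klhl12* (0.134), *Cant1* (0.14) and *Bahd1* (0.141). For *Neurod1* (0.37) they were *Slain2* (0.106), *Ralgapb* (0.125) and *Itch* (0.131), and for *Isl1* (0.292) they were *Eri2* (0.11), *Cap1* (0.131) and *Sgtb* (0.131).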

How the data were processed

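RNA-seq libraries were made from the RNA of 12 tumors with a stranded poly(A) protocol. For each tumor the authors deposited a table of unnormalized read counts per gene. The submitters' processing notes name cutadapt 1.2.1, TopHat2 2.0.9, HTSeq 0.5.4p3 and the build GRCm38. The annotation release and the strand setting of the counting are not given in the sources used here, so reads of a member and of an antisense partner (*Plut*, *Nkx2-2os*, *6430503K07Rik*, *Gm26755*, *Pax6os1*) could be mixed. The summary lines that close each table, such as reads on no gene (11.11% to 18.76% of reads), were left out.

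Groups and tumor numbers were taken from the labels. Symbols, coordinates and exon lengths come from GENCODE M21 (GRCm38), which named 37607 of 38924 identifiers. The 8 members, the gene lists and the tests were chosen with earlier results of these data known. Genes named beside the members follow a rule: up to 6 called genes per list and comparison, *Ins1*, *Ins2* and *Slc2a2* always, and the 3 genes most alike each member. Exceptions are said to have been chosen after seeing the values. Some genes that the rule names are not reported here. *Plut*, antisense to *Pdx1*, had 12 to 446 reads.

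Counts were scaled by TMM, genes filtered by filterByExpr with at least 10 counts and 15 in total (16645 genes), and all 12 tumors fitted together with edgeR 4.0.16 (R 4.3.3, limma 3.58.1; quasi-likelihood F-test, robust). Adjusted p (Benjamini-Hochberg) was taken over all tested genes of a comparison and called under 0.05. Standard errors were derived from the fold change and its F. A prior count of 2 was added for log2 CPM. The fit was tested on simulated counts for sunitinib versus control: of 200 changed genes among 16503, 117 were recovered, including 84 of the 100 changed by 2 on the log2 scale. Alternatives were DESeq2 1.42.0, other normalizations and filters, fewer tumors, an acinar covariate (the mean log2 CPM of the acinar markers), scaling to 10 neuroendocrine genes and tumors of 1 prefix summed. Within groups, no pair of tumors differed as little as sampling noise (at least 22.8 times its chi-square per gene). With 110 or more reads per member and tumor, counting error is small beside the spread between tumors.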

Additional observations from a re-analysis of the deposited data

Results flagged for a closer look

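Sunitinib tumor 6 was far from the other 3 tumors of its group for *Pdx1* and *Mafa* on the log2 CPM scale. The gap to the nearest tumor made up 0.949 of the range of the group for *Pdx1* and 0.866 for *Mafa*, above the critical value of Dixon's test for 4 samples. On the untransformed CPM scale, none of the 24 groups of 4 tumors (8 members in 3 groups) passed that value, and on the log2 scale 2 did. Chance flags about 1 in 20 groups. The log2 scale was added after the data had been seen, and the cause was not tested.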

How the results depend on the processing

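Of 528 fold changes of members recomputed under alternatives, 500 kept their direction and their side of the threshold, 6 passed it only in an alternative, 6 only as reported, and 16 turned, none of them past the threshold. The number of members called in R+S versus control was 1 with DESeq2 and 2 when only 8 tumors were fitted. In R+S versus sunitinib it was 2 with DESeq2 and 0 with 8 tumors, with the neuroendocrine scaling and with the acinar covariate. Leaving out 1 tumor gave 0 to 1 called members in R+S versus control (1 without sunitinib tumor 6) and 0 to 2 in R+S versus sunitinib (2 without sunitinib tumor 5, 0 without R+S tumor 4, 5 or 7). The permutation counts were the same on both other scales.

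These log2 fold changes turned. With the neuroendocrine scaling they were -0.26 for *Mafa* in sunitinib versus control, and -0.12 for *Neurod1* and -0.09 for *Pax6* in R+S versus control. With the acinar covariate they were 0.07 for *Isl1* and 0.73 for *Pax6* in sunitinib versus control and 0.23 for *Pdx1* in R+S versus control. The acinar markers summed to at most 132 CPM in control tumors, and to at least 11740 CPM in sunitinib and 3184 CPM in R+S tumors. Against control, this covariate can therefore hardly be told apart from treatment, and these turns cannot be read as a result. With tumors of 1 prefix summed, *Isl1* in R+S versus sunitinib was 0.05. Leaving out 1 tumor, the range in sunitinib versus control was -0.27 to 0.45 for *Mafa*, -0.17 to 0.02 for *Nkx2-2* and -0.42 to 0.03 for *Pax6*, and in R+S versus sunitinib -0.10 to 0.58 for *Pdx1* and -0.12 to 0.08 for *Isl1*. The causes were not tested.

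Over all genes, the calls in the 3 comparisons were 745, 693 and 1200, with DESeq2 1477, 1688 and 3045, with 8 tumors 380, 2557 and 3, and with the acinar covariate 0, 0 and 300. In the comparisons with control, the acinar covariate can hardly be told apart from treatment. The neuroendocrine scaling left 0 calls in R+S versus sunitinib, no filter 501, and 10 reads in every tumor 408 in sunitinib versus control. Leaving out 1 tumor gave 440 to 902, 292 to 1627 and 0 to 2861. No paired analysis was possible because the groups share at most 1 replicate number.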
